A study of Mus musculus with 12 samples.

Results

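The difference between Jag1 Ndr/Ndr and wild-type mice that is shared by hilar and peripheral bile duct organoids was described from the summed RNA counts of the 2 organoid cultures of each mouse. All 12 libraries of the series entered, as 6 mouse totals of 1 hilar plus 1 peripheral library each. The direction of every gene was then read separately in each region: 14946 genes were tested both in the mouse totals and in the 12 single libraries, and 7565 of them had the same direction in hilar and peripheral organoids.

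The Ndr mice (1219, 1220 and 1224) were homozygous for Ndr, a missense allele of the Notch ligand gene Jag1, and the WT mice (1221, 1223 and 1225) were Jag1+/+. Intrahepatic cholangiocyte organoids, which are hollow balls of bile duct epithelium, came from 2 sites of each liver, its hilum and its periphery. They were grown in domes of Matrigel basement membrane gel without treatment and sampled at passage 5. Each genotype therefore had 3 hilar and 3 peripheral cultures, from 3 mice. The labels give neither strain nor age. They do give the day of June 2021 on which the cultures were derived: the 17th for Ndr mouse 1219, the 18th for Ndr mouse 1220, the 21st for Ndr mouse 1224 and WT mouse 1225, and the 15th for WT mice 1221 and 1223. Only the 21st holds both genotypes, so for the other mice genotype and derivation day cannot be told apart.

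JAG1 on one cell binds NOTCH receptors on its neighbour, which releases the receptor's intracellular part to join the DNA-binding protein RBPJ and switch on target genes. In the liver this signal turns progenitor cells near the portal vein into bile ducts, and loss of JAG1 function causes Alagille syndrome, in which bile ducts are too few. Ndr mice are used as a model of that syndrome. The comparison asks which genes differ with the genotype in duct cells wherever in the liver they came from.

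Libraries held 6708822 to 16030880 counts, and mouse totals 15114265 to 28387522, of which the hilar library gave 39.3% to 56.5%. Values below are CPM on TMM-scaled library sizes (counts divided by the scaled total), which correct for depth but not for gene length, so levels are compared between samples and not between genes. The cholangiocyte markers Krt7, Krt19, Epcam, Sox9, Spp1 and Cdh1 had reads in all 12 libraries. Krt7, a keratin of duct epithelium, ranged over 693 to 1827 CPM in Ndr and 647 to 3366 CPM in WT libraries, and Krt19, another duct keratin, over 201 to 2977 CPM in Ndr and 398 to 2034 CPM in WT libraries. The 7 fibroblast and stellate markers summed to at most 1.79 CPM and the 5 endothelial markers to at most 0.424 CPM in a library. The hepatocyte genes Cps1 and Asgr1, the fibroblast gene Dcn, the endothelial gene Kdr, the macrophage genes Adgre1 and Clec4f and all 4 pancreatic markers were at 0. The 6 immune markers summed to at most 37.0 CPM in a library. Among them Csf1r had reads in all 12 libraries, at 6.79 to 37.0 CPM in Ndr and 5.87 to 16.8 CPM in WT. Of the mesothelial markers, Msln was present in every library, while Wt1 had reads in 5 Ndr libraries and 0 WT libraries, up to 25.98 CPM. In a principal component analysis of the libraries, those of Ndr mouse 1220 lay at opposite ends of the first component, at -91.5 for the hilar and 63.8 for the peripheral culture. In these bulk cultures, fewer cells of a type and less RNA per cell cannot be told apart.

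Jag1 itself (ENSMUSG00000027276) was transcribed in both genotypes. Its mouse totals were 119, 126 and 102 CPM in Ndr mice 1219, 1220 and 1224, against 149, 144 and 94.5 CPM in WT mice 1221, 1223 and 1225. The genotypes overlapped, since WT mouse 1225 was below every Ndr mouse. The difference was -0.17 on the log2 scale (SE 0.198, edgeR adjusted p = 0.926), with 0.24 in hilar and -0.31 in peripheral organoids. A missense allele leaves the transcript in place, so this level does not test the labels.

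No gene passed an adjusted p of 0.05 between Ndr and WT mouse totals with the quasi-likelihood test of edgeR (0 of 15401, or 0%). At an unadjusted p under 0.05 there were 834 genes (5.42%), close to the share that the threshold itself allows, of which 451 were lower in Ndr (2.93%) and 383 higher (2.49%). DESeq2 on the same totals called 126 of 16825 genes (0.749%), 72 lower (0.428%) and 54 higher (0.321%) in Ndr mice, and limma-voom called 0. The 3 Ndr totals did not overlap with the 3 WT totals in 890 genes lower in Ndr (5.78%) and 846 higher (5.49%). Within a region edgeR called 0 of 15014 genes as well, and an unadjusted p under 0.05 was found for 982 genes in hilar (6.54%) and 438 in peripheral organoids (2.92%). Every gene named below missed the edgeR threshold unless another tool is named, and its values are a description of these 6 mice.

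Direction was shared about as often as not. Of the 14946 genes, 50.6% had the same direction in hilar and peripheral organoids, with 3468 lower in Ndr (23.2%) and 4097 higher (27.4%), and 7381 (49.4%) had opposite directions. Lower and higher genes were nearly equal in number with other scalings and tools, at 3722 lower and 3734 higher with DESeq2 size factors in edgeR, 3750 lower and 3717 higher with DESeq2, and 3785 lower and 3817 higher with limma-voom. Large differences were shared more often: 184 genes were lower in Ndr by at least 1 on the log2 scale in both regions (1.23%) and 113 were higher by as much (0.756%), while 132 differed that far in opposite directions (0.883%). At that limit, Cybrd1 and Reg3b lay just inside, with 1.004 and 1.006 as the smaller of their regional differences, and Epsti1 and Gjb2 just outside, with 0.997 and 0.998. At least 2 on the log2 scale in both regions was reached by 41 genes lower in Ndr (0.274%) and 22 higher (0.147%). Of the 126 genes that DESeq2 called, 115 were in both edgeR tests, and 64 of them were lower in both regions, 48 higher in both and 3 opposite. The totals weigh both regions, so a gene with a large difference in the totals tends to have it in both regions by construction. The plot of hilar against peripheral differences shows the named genes on this background.

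**Figure D1:**
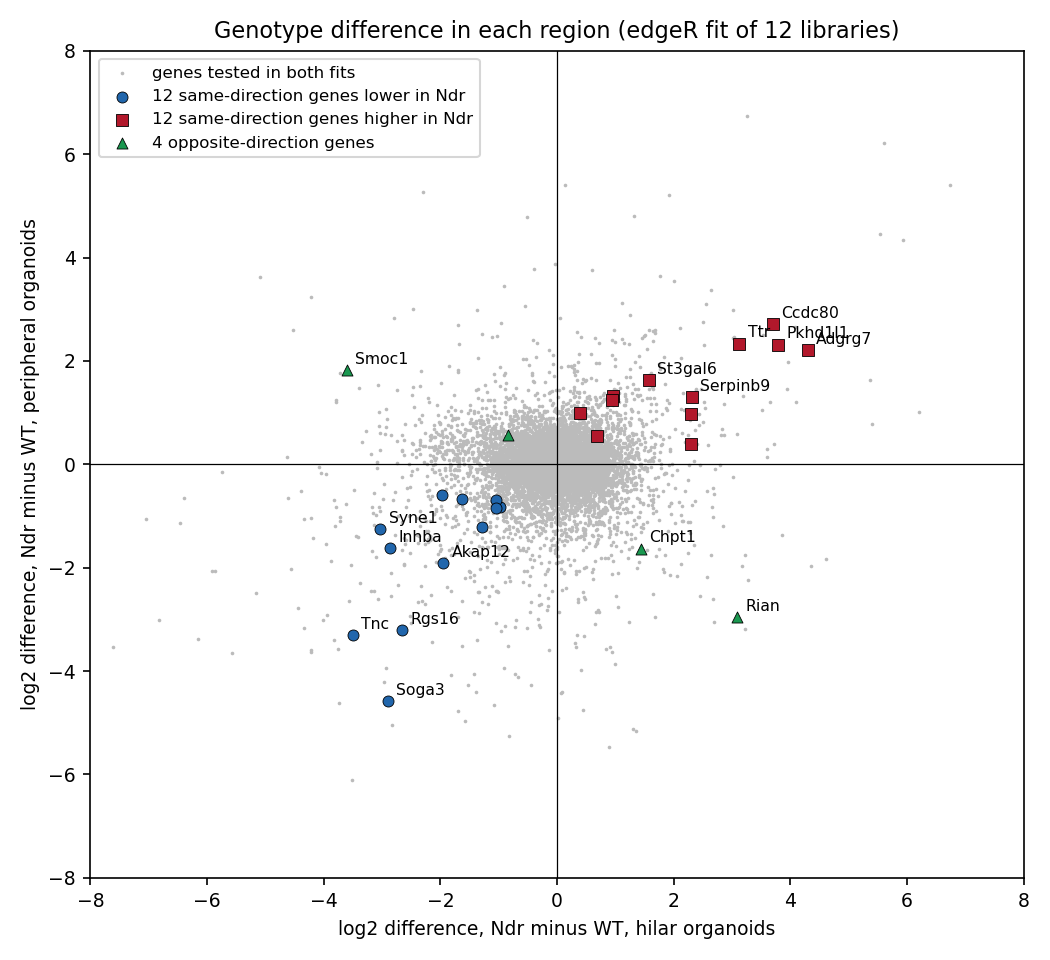
Log2 difference between Ndr and WT in hilar organoids (x axis) against that in peripheral organoids (y axis), from an edgeR fit of 12 libraries; each grey point is 1 of 14945 genes, and 1 further gene lies outside the axes. Blue circles are the 12 genes lower in Ndr in both regions with the smallest p in the mouse totals, red squares the 12 higher, and green triangles 4 genes of opposite direction; the red and blue points share their direction because they were chosen for it.

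The genes lower in Ndr mice with the smallest p were Rgs16, Inhba, Soga3, Tnc, Akap12, Eif3j1, Dock11, Polr1b, Cxcl2, Syne1, Pak6 and Gpm6b. Those higher in Ndr mice were Adgrg7, Serpinb9, St3gal6, Sgk1, Ttr, Ccdc80, Dusp22, Pkhd1l1, Aldh1a1, Foxa3, Gstm1 and Hcfc1r1. They had the same direction in both regions and at least 5 CPM in the higher genotype, and the sets of 12 hold genes of signalling, matrix, transport and metabolism. The 250 bases before the start of Rgs16, Inhba and Tnc, lower in Ndr, and of Adgrg7 and Serpinb9, higher in Ndr, are shown because these are the genes with small p and large differences that the values below turn on (GRCm38.p6, sequences from RefSeq). Capitals mark the RBPJ core TGGGAA, the letters to which the Notch pathway's DNA-binding protein binds, or its reverse complement TTCCCA. The Rgs16 window is chr1:153740103-153740352 on the plus strand, Inhba chr13:16011601-16011850 plus, Tnc chr4:64046937-64047186 minus, Adgrg7 chr16:56795859-56796108 minus and Serpinb9 chr13:33004291-33004540 plus.
Rgs16: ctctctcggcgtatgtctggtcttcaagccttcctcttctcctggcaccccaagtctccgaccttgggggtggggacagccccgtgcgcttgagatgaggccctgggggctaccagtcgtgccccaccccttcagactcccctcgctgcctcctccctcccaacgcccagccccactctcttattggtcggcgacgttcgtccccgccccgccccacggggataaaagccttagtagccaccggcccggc
Inhba: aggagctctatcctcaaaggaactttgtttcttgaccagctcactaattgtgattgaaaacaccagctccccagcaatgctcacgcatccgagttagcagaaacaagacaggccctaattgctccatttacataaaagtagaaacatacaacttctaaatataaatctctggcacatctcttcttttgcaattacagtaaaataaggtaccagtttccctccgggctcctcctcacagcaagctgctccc
Tnc: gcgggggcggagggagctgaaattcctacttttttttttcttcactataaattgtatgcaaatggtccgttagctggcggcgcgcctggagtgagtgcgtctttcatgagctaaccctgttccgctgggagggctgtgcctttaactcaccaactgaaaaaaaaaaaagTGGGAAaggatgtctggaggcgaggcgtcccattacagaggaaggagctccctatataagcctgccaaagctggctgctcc
Adgrg7: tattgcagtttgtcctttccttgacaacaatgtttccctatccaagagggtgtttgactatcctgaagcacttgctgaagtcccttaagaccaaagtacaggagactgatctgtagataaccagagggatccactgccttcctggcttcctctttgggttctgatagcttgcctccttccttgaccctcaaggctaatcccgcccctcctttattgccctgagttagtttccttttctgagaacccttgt
Serpinb9: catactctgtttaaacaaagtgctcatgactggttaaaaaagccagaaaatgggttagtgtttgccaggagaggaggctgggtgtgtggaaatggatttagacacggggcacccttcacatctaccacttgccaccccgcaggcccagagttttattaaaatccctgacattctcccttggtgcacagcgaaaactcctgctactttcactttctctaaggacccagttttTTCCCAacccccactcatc
Some genes had more than 1 such window, such as 6 for Sgk1, 3 for Syne1 and 2 for Tnc, and a match in any of them counted. The core was found on either strand in the windows of 3 of 11 lower genes (Soga3, Tnc and Polr1b) and of 2 of 9 higher genes (Serpinb9 and St3gal6), or 27.3% and 22.2%. It was in 24.1% of the 27025 genes with such a window and in 23.9% of the 9949 tested genes with one. The AP-1 letters TGANTCA were in 0 of 11 and 1 of 9 (Aldh1a1), against 7.82% of all genes and 5.74% of tested genes. The antioxidant response letters TGACNNNGC were in 2 of 11 (Eif3j1 and Pak6) and 0 of 9, against 11.5% of all genes and 14.0% of tested genes. The last pair of motifs begins with the same letters, so a stretch can match both, and a match describes the letters only.

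Several of the lower genes restrain or carry signals at the cell membrane. Rgs16, which speeds the shut-off of heterotrimeric G proteins, had 22.4, 10.1 and 7.15 CPM in hilar and 7.44, 8.77 and 9.42 CPM in peripheral Ndr organoids of mice 1219, 1220 and 1224. WT organoids of mice 1221, 1223 and 1225 had 64.2, 159 and 27.8 CPM of Rgs16 in hilar and 83.7, 41.9 and 112 CPM in peripheral cultures. All 6 Ndr libraries were thus below all 6 WT libraries, with the hilar culture of WT mouse 1225 lowest among the WT cultures. The mouse totals averaged 10.8 ± 3.53 CPM in Ndr and 80.3 ± 11.2 CPM in WT (SD, n = 3 each), a log2 difference of -2.89 (SE 0.252), and the edgeR adjusted p of 0.124 was the smallest over all genes. Akap12, a scaffold for protein kinases A and C at the membrane, was likewise separated in all 12 libraries. It had 12.7, 19.6 and 9.32 CPM in hilar and 17.1, 3.02 and 24.5 CPM in peripheral Ndr organoids, against 47.9, 67.8 and 45.2 CPM in hilar and 41.6, 36.5 and 90.4 CPM in peripheral WT organoids. Its difference was -1.97 (SE 0.277, edgeR adjusted p = 0.277), nearly equal in both regions at -1.95 and -1.91.

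Inhba and Tnc encode secreted products. Inhba, the subunit of activin A, a ligand of the TGF-beta family, had 12.2, 4.57 and 3.96 CPM in hilar and 7.44, 21.9 and 24.9 CPM in peripheral Ndr organoids. In WT it had 55.6, 62.7 and 33.9 CPM in hilar and 52.3, 30.1 and 84.9 CPM in peripheral organoids. The highest Ndr library was below the lowest WT library, and the totals differed by -2.01 (SE 0.232, edgeR adjusted p = 0.243). Tnc, the matrix protein tenascin C, had 4.26, 0.131 and 0.894 CPM in hilar and 4.55, 2.83 and 6.86 CPM in peripheral Ndr organoids, against 16.3, 40.3 and 6.41 CPM in hilar and 71.5, 12.8 and 56.8 CPM in peripheral WT organoids. The libraries overlapped only where the peripheral culture of Ndr mouse 1224 lay just above the hilar culture of WT mouse 1225. The totals of Tnc averaged 3.46 ± 1.56 CPM in Ndr and 33.0 ± 7.63 CPM in WT mice, a log2 difference of -3.25 (SE 0.400, edgeR adjusted p = 0.243).

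Eif3j1, a subunit of translation initiation factor 3, and Polr1b, a core subunit of RNA polymerase I, were separated in all 12 libraries by smaller amounts. Eif3j1 had 37.2, 23.5 and 29.0 CPM in hilar and 24.8, 34.8 and 26.1 CPM in peripheral Ndr organoids, against 47.6, 57.6 and 71.3 CPM in hilar and 48.8, 55.3 and 48.6 CPM in peripheral WT organoids. Polr1b had 15.8, 23.8 and 26.8 CPM in hilar and 27.4, 24.4 and 21.2 CPM in peripheral Ndr organoids, against 48.2, 36.3 and 52.6 CPM in hilar and 41.7, 39.0 and 37.1 CPM in peripheral WT organoids. Both differed by -0.91 on the log2 scale in the totals, with SE 0.133 for Eif3j1 and 0.139 for Polr1b and an edgeR adjusted p of 0.277. Their spread among the 3 mice of a genotype was narrow, as the Eif3j1 totals of 29.2 ± 1.62 CPM in Ndr and 54.9 ± 5.75 CPM in WT show.

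The remaining lower genes differed in every mouse total but not in every library, apart from Pak6. Pak6, a kinase of the p21-activated family, averaged 19.1 ± 3.56 CPM in Ndr and 38.8 ± 2.35 CPM in WT mouse totals. Soga3 was low, at 0.525 ± 0.244 CPM in Ndr and 6.64 ± 1.97 CPM in WT mice, and the hilar culture of WT mouse 1223 had 0.309 CPM, within the Ndr range. Dock11, an exchange factor that activates CDC42, averaged 35.7 ± 3.45 CPM in Ndr and 70.5 ± 8.69 CPM in WT mice, with differences of -1.97 in hilar and -0.59 in peripheral organoids. Cxcl2, a chemokine that draws neutrophils, averaged 15.8 ± 0.775 CPM in Ndr and 34.7 ± 6.53 CPM in WT mice. Syne1, a giant protein that links the nuclear envelope to the cytoskeleton, averaged 11.6 ± 4.35 CPM in Ndr and 38.2 ± 6.00 CPM in WT mice. Its difference was -3.03 in hilar and -1.25 in peripheral organoids (edgeR interaction, unadjusted p = 0.024 and adjusted p = 0.994). Gpm6b, a membrane proteolipid, averaged 19.6 ± 4.40 CPM in Ndr and 46.6 ± 8.70 CPM in WT mice, but the hilar culture of WT mouse 1225 had 15.7 CPM, below 5 of the 6 Ndr libraries.

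**Figure D2:**
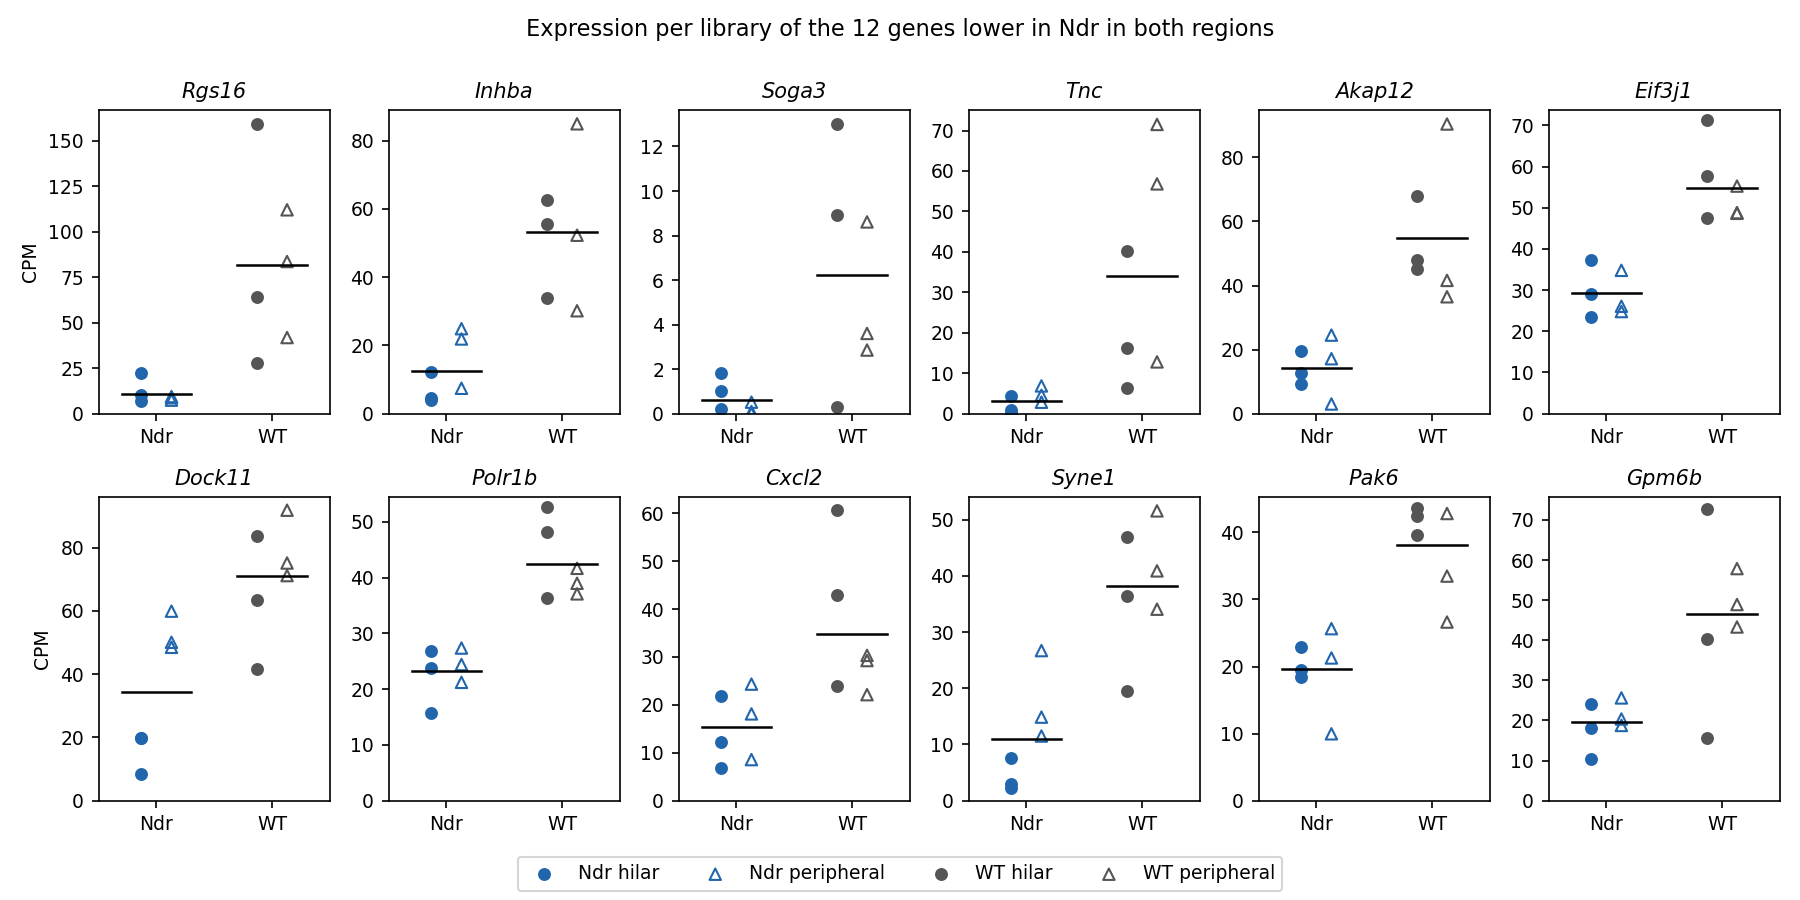
Expression in CPM (y axis, linear, from 0) in each library of the 12 genes lower in Ndr in both regions, ordered by p; filled circles are hilar and open triangles peripheral organoids, Ndr in blue at left and WT in grey at right, and bars are means of 6 libraries. Rgs16, Inhba, Akap12, Eif3j1, Polr1b and Pak6 have no Ndr library at or above a WT library.

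Among the higher genes, Adgrg7 and St3gal6 were separated in all 12 libraries. Adgrg7, an adhesion G protein-coupled receptor, had 613, 621 and 168 CPM in hilar and 358, 227 and 407 CPM in peripheral Ndr organoids of mice 1219, 1220 and 1224. WT organoids had 35.9, 24.7 and 10.4 CPM of Adgrg7 in hilar and 18.7, 126 and 69.0 CPM in peripheral cultures of mice 1221, 1223 and 1225. The lowest Ndr library, the hilar culture of mouse 1224, was still above the highest WT library, the peripheral culture of mouse 1223. The totals averaged 391 ± 86.1 CPM in Ndr and 51.3 ± 27.5 CPM in WT mice, a log2 difference of 2.93 (SE 0.408, edgeR adjusted p = 0.277), with 4.30 in hilar and 2.21 in peripheral organoids. St3gal6, which adds sialic acid to glycoprotein and glycolipid chains, had 52.5, 41.4 and 41.4 CPM in hilar and 29.4, 38.9 and 76.4 CPM in peripheral Ndr organoids, against 15.5, 20.7 and 9.42 CPM in hilar and 12.2, 19.5 and 15.3 CPM in peripheral WT organoids. Its difference of 1.59 (SE 0.255, edgeR adjusted p = 0.318) was alike in hilar (1.57) and peripheral organoids (1.63).

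Serpinb9, Sgk1 and Ttr were separated in hilar organoids more clearly than in peripheral ones. Serpinb9, an inhibitor of the protease granzyme B, had 217, 461 and 344 CPM in hilar and 278, 16.2 and 29.0 CPM in peripheral Ndr organoids, against 85.1, 58.4 and 61.7 CPM in hilar and 65.7, 42.7 and 22.9 CPM in peripheral WT organoids. In peripheral cultures only that of Ndr mouse 1219 stood above the WT range. Sgk1, a kinase that controls sodium transport, had 257, 455 and 409 CPM in hilar and 159, 70.5 and 29.6 CPM in peripheral Ndr organoids, against 81.3, 72.3 and 73.6 CPM in hilar and 15.8, 123 and 58.0 CPM in peripheral WT organoids. Its regional differences were 2.30 and 0.40, so the shared direction rests mainly on the hilar cultures. Ttr, the thyroxine and retinol carrier transthyretin that hepatocytes secrete, had 25.0, 51.3 and 52.0 CPM in hilar and 21.4, 8.30 and 4.30 CPM in peripheral Ndr organoids, against 5.00, 7.72 and 2.01 CPM in hilar and 2.60, 3.59 and 0.530 CPM in peripheral WT organoids. The 6 hepatocyte markers, Ttr among them, summed to 161 to 322 CPM in Ndr and 155 to 248 CPM in WT libraries, most of it from Hnf4a, while Cps1 and Asgr1 were at 0. The log2 differences of the totals were 1.83 for Serpinb9 (SE 0.274, edgeR adjusted p = 0.277), 1.49 for Sgk1 (SE 0.239, 0.318) and 2.77 for Ttr (SE 0.479, 0.414).

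Aldh1a1 and Gstm1 are enzymes of retinaldehyde oxidation and of glutathione conjugation. Aldh1a1 had 42.9, 55.4 and 39.96 CPM in hilar and 31.7, 14.1 and 18.3 CPM in peripheral Ndr organoids, against 10.6, 11.7 and 5.65 CPM in hilar and 2.60, 18.7 and 11.4 CPM in peripheral WT organoids. Its totals averaged 31.7 ± 4.74 CPM in Ndr and 10.6 ± 4.42 CPM in WT mice, and the libraries overlapped through the peripheral cultures of Ndr mice 1220 and 1224 and of WT mouse 1223. Gstm1 averaged 75.5 ± 3.49 CPM in Ndr and 42.8 ± 7.86 CPM in WT mice, with a wider difference in peripheral (0.99) than in hilar organoids (0.38). Reads of Gstm1 and of the Serpinb9 family may be shared with near-identical genes, so their counts are uncertain.

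The other higher genes were mostly below 20 CPM. Ccdc80, a matrix protein, averaged 13.3 ± 7.56 CPM in Ndr and 1.54 ± 0.532 CPM in WT mice, and Pkhd1l1, a large membrane protein related to fibrocystin, averaged 9.57 ± 1.498 CPM in Ndr and 1.37 ± 0.950 CPM in WT mice. Dusp22, a phosphatase of the JNK pathway, averaged 13.05 ± 2.31 CPM in Ndr and 5.44 ± 0.794 CPM in WT mice. Foxa3, a forkhead factor of liver and gut endoderm, averaged 16.4 ± 1.21 CPM in Ndr and 7.96 ± 1.51 CPM in WT mice. Hcfc1r1, which binds the transcription cofactor HCF-1, averaged 109 ± 7.12 CPM in Ndr and 72.1 ± 5.99 CPM in WT mice. In each of these 5 genes the lowest Ndr total exceeded the highest WT total, while single libraries overlapped.

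**Figure D3:**
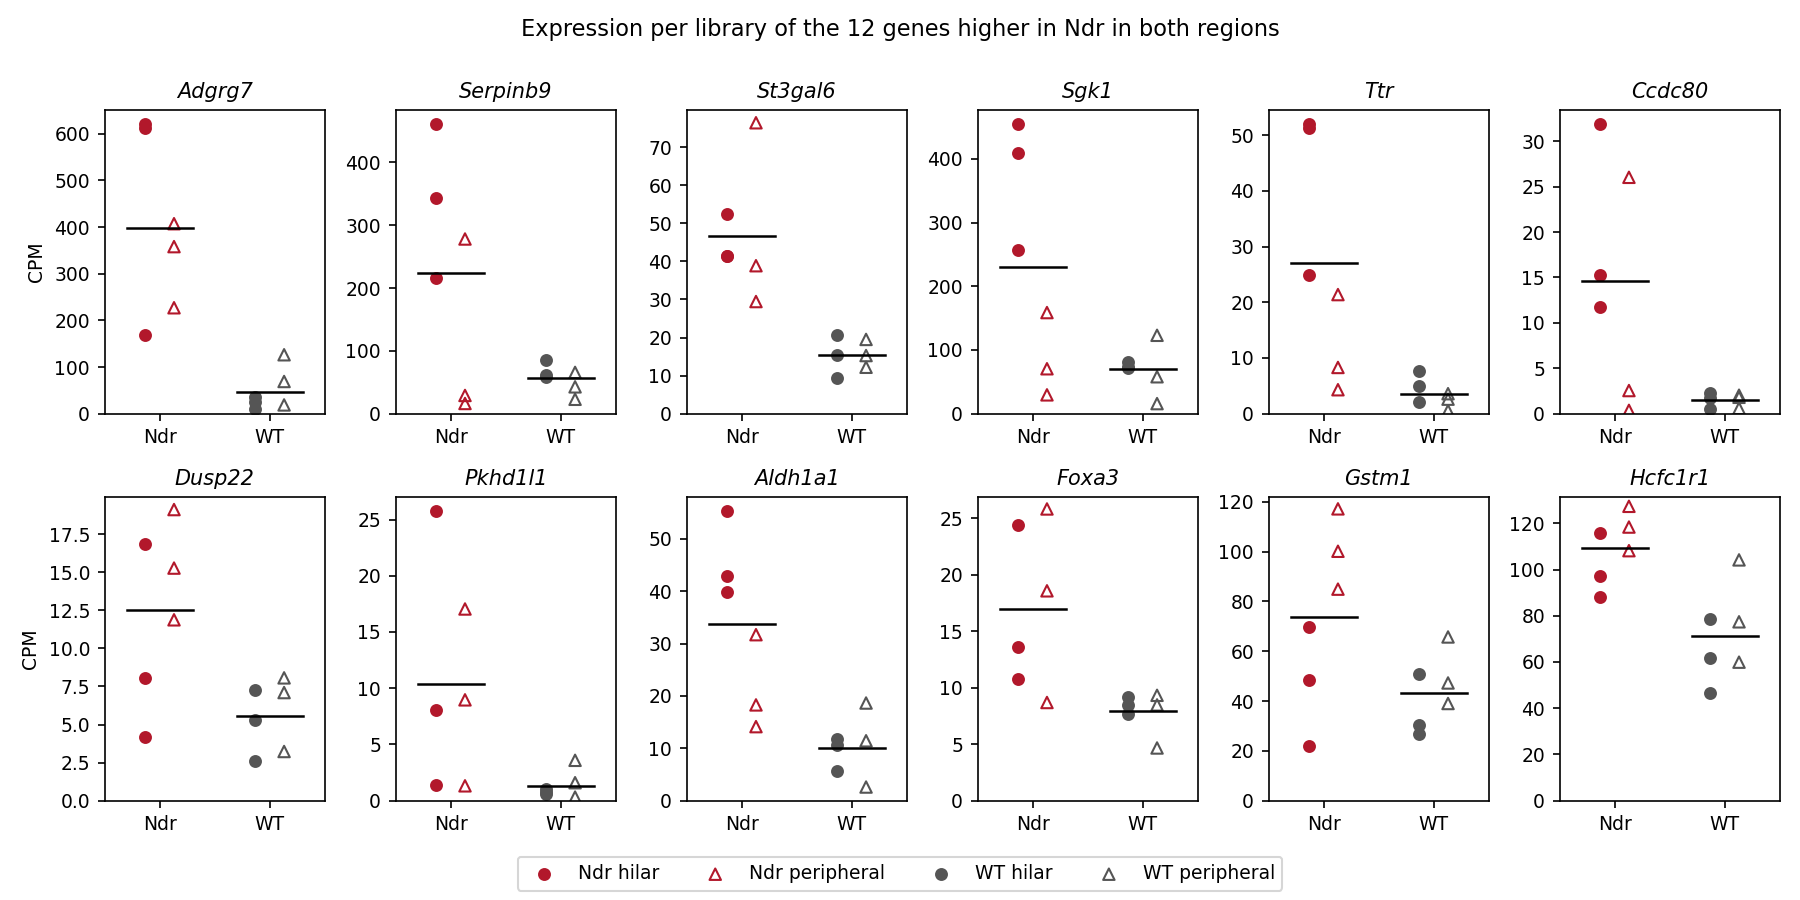
Expression in CPM (y axis, linear, from 0) in each library of the 12 genes higher in Ndr in both regions, ordered by p; filled circles are hilar and open triangles peripheral organoids, Ndr in red at left and WT in grey at right, and bars are means of 6 libraries. Adgrg7 and St3gal6 are separated in every library, while Serpinb9, Sgk1 and Ttr are further apart in hilar than in peripheral cultures.

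In 56 genes the 6 Ndr libraries did not overlap with the 6 WT libraries (0.375% of 14946), 18 lower in Ndr (0.12%) and 38 higher (0.254%). The 10 with at least 5 CPM and the largest smaller regional difference were Rgs16, Olfm4, Adgrg7, Ntn1, Akap12, Inhba, Depdc7, St3gal6, Slpi and Gpd1l. Olfm4, a secreted glycoprotein that marks intestinal stem cells, had 40.2, 13.6 and 10.6 CPM in hilar and 40.9, 3.58 and 2.65 CPM in peripheral Ndr organoids, against 56.3, 163 and 94.0 CPM in hilar and 151, 68.5 and 86.0 CPM in peripheral WT organoids. Both cultures of Ndr mouse 1219 were higher than those of the other Ndr mice, and the edgeR adjusted p was 0.799. Without that mouse the edgeR test called 4 genes, Olfm4 first among them, with Rgs16, Cdh16 and Cdhr5. Ntn1, the guidance molecule netrin 1, averaged 11.0 ± 2.88 CPM in Ndr and 75.6 ± 48.2 CPM in WT mice. Slpi, a secreted protease inhibitor of epithelia, averaged 8.60 ± 2.71 CPM in Ndr and 27.7 ± 6.11 CPM in WT mice. Gpd1l, a glycerol 3-phosphate dehydrogenase, averaged 91.4 ± 22.8 CPM in Ndr and 39.9 ± 12.6 CPM in WT mice, and Depdc7 averaged 7.90 ± 4.55 CPM in Ndr and 1.69 ± 0.439 CPM in WT mice.

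Of these 56 genes 13 lie on chromosome 2, the chromosome of Jag1. They were 1.11% of the 1174 tested genes of that chromosome, against 0.312% of the 13772 genes elsewhere. Gene order was taken from an annotation of GRCm38, and the pattern was noticed after the values were seen. Along the order of tested genes, 10 of the 13 (Depdc7, Them7, Lgr4, Dph6, Pak6, Tmem87a, Adal, Eif3j1, Bloc1s6 and Polr1b) were among the 300 genes that precede Jag1, and Mettl8, Bpifb4 and Slpi lay outside. Of these 300 genes, 53 had an unadjusted p under 0.05 in the totals (17.7%), against 50 of the other 874 genes of the chromosome (5.72%). Over 139 windows of 100 genes in the genome the median share was 5%, and the highest shares, 21% and 20%, were those of neighbouring windows of chromosome 2, from Duox1 to Fermt1 and from Emc7 to Duoxa1, both before Jag1.

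Some of these genes differed by small amounts with little spread, and others by more. Tmem87a, a membrane protein of the Golgi, had 80.3, 80.5 and 79.7 CPM in Ndr totals of mice 1219, 1220 and 1224, against 56.1, 60.8 and 49.8 CPM in WT totals of mice 1221, 1223 and 1225 (log2 0.53, SE 0.120). Bloc1s6, a subunit of a complex that makes lysosome-related organelles, had 56.7, 54.2 and 55.6 CPM in Ndr and 34.3, 41.1 and 36.8 CPM in WT totals. Dph6, an enzyme of the diphthamide modification, had 48.9, 52.2 and 47.2 CPM in Ndr and 37.5, 35.8 and 36.3 CPM in WT totals. The gaps were larger for Lgr4, a receptor of R-spondins that strengthens Wnt signals, which had 117, 125 and 115 CPM in Ndr and 74.9, 74.9 and 50.6 CPM in WT totals. Them7 was nearly without reads in WT, with 217 reads over 6 Ndr libraries and 3 reads over the WT libraries, and Bpifb4 had 84 reads in Ndr and 5 in WT. Strand was not kept by the library kit, so reads of overlapping genes cannot be told apart. The cause of this pattern was not tested.

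**Figure D4:**
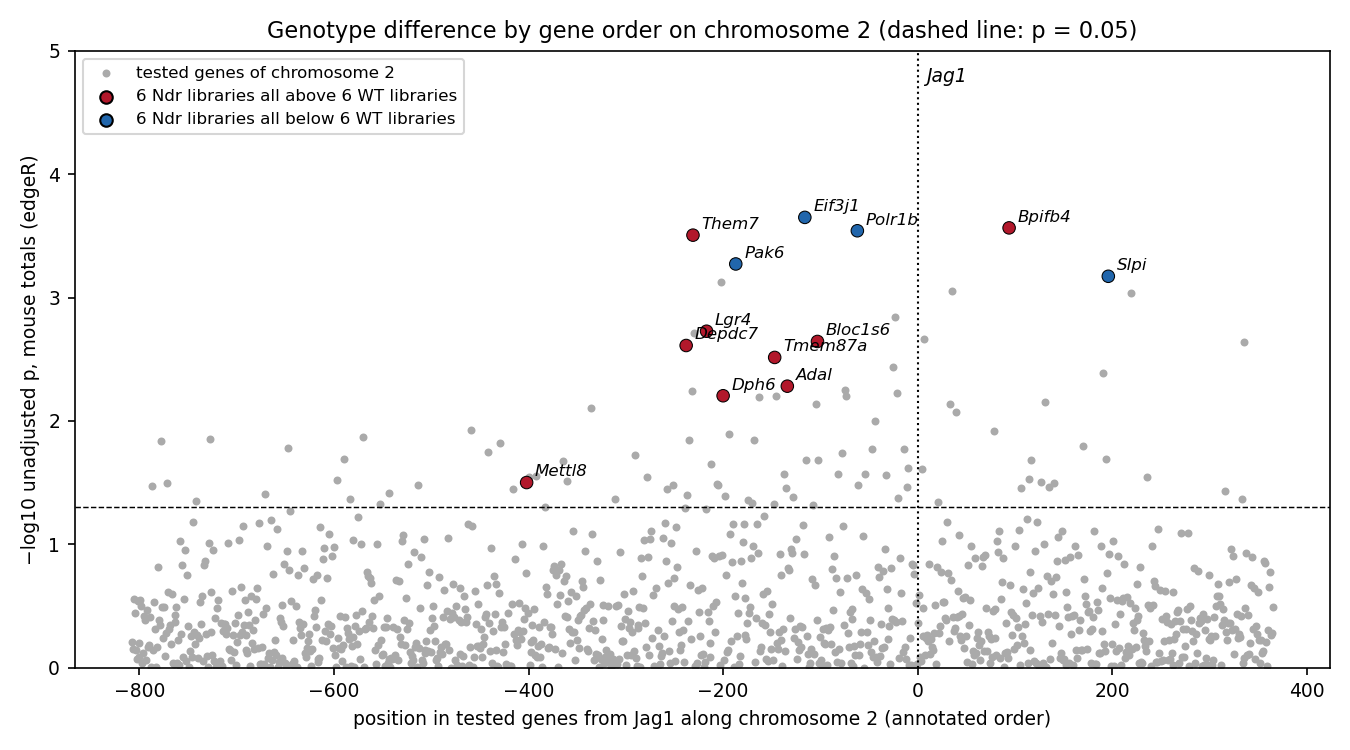
Unadjusted p of the genotype difference in mouse totals (y axis, as −log10, edgeR) of the tested genes of chromosome 2 in annotated order, counted in genes from Jag1 (x axis); coloured points are the 13 genes whose 6 Ndr and 6 WT libraries do not overlap, red higher and blue lower in Ndr. Of the 13, 10 lie within the 300 tested genes before Jag1.

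Members of 27 gene lists were counted by direction, read against the 23.2% of all genes that were lower and the 27.4% that were higher in Ndr in both regions. Lists and members were chosen with earlier results of these data known. Some lists hold genes already named above, such as Inhba, Tnc, Rgs16, Adgrg7, Akap12 and Serpinb9. Their shares beside those of all genes are therefore a description and not a test of a pathway. The inflammation list leaned to lower values: 24 of 38 tested members were lower in both regions, 1 was higher and 13 were opposite. In the totals 10 members were lower at an unadjusted p under 0.05 in edgeR and 0 higher, where 2.93% of all tested genes were lower and 2.49% higher at that threshold, and the median log2 difference was -0.49, beside -0.01 over all genes. Zc3h12a, an RNase that dampens inflammatory transcripts, had 26.1, 20.8 and 32.7 CPM in Ndr totals and 58.8, 55.2 and 41.5 CPM in WT totals. Ccl20, the ligand of the chemokine receptor CCR6, had 15.6, 10.1 and 14.3 CPM in Ndr and 26.9, 42.2 and 20.1 CPM in WT totals. Lcn2, the iron-binding antimicrobial protein lipocalin 2, had 1985, 1472 and 3112 CPM in Ndr and 4785, 5516 and 1833 CPM in WT totals and overlapped between genotypes. In these 3 genes WT mouse 1225 was the lowest of the WT mice. With derivation date in the model, where the contrast rests on Ndr mouse 1224 and WT mouse 1225, the median of the list was 0.06.

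The xenobiotic and antioxidant list leaned to higher values in Ndr, with 16 of 37 tested members higher in both regions, 4 lower and 17 opposite. In the totals 11 were higher at an unadjusted p under 0.05 in edgeR (2.49% of all tested genes) and 0 lower, with a median of 0.43. By region the median was 0.56 in peripheral but -0.02 in hilar organoids, so its lean was in the peripheral cultures. Nqo1, a quinone reductase, had 4.61, 4.60 and 3.54 CPM in Ndr and 0.214, 0.607 and 0.874 CPM in WT totals. Cbr1, a carbonyl reductase, had 117, 76.2 and 94.9 CPM in Ndr and 48.7, 57.1 and 52.2 CPM in WT totals. Each of these, like Aldh1a1 and Gstm1, had its lowest Ndr total above its highest WT total. The glutathione transferases Gsta1, Gsta2, Gsta3 and Gstp1, the glutathione synthesis subunit Gclm, the reductase Cbr3 and the epoxide hydrolase Ephx1 completed the 11, with counts of the Gsta genes uncertain where reads are shared within the family. With derivation date in the model the median of the totals was 0.25.

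Lists of growth factor signals and matrix leaned to lower values with few members past an unadjusted p of 0.05. The TGF-beta, activin and matricellular list had 16 of 38 members lower in both regions and 2 higher, with a median of -0.16 that ran from -0.308 to -0.102 with 1 mouse left out. After Inhba and Tnc came the type I activin receptor Acvr1b, at 46.8, 49.0 and 45.9 CPM in Ndr and 69.0, 61.0 and 68.0 CPM in WT totals. Sparc, a collagen-binding matrix protein, was higher in Ndr at 1.99 ± 0.537 CPM against 0.419 ± 0.252 CPM in WT. Each differed mainly in 1 region, Acvr1b by -0.03 in hilar and -0.73 in peripheral organoids and Sparc by 3.60 and 0.15. The EGF and ERK list had 11 of 28 lower and 3 higher. Egfr, the receptor of EGF, had 169, 120 and 160 CPM in Ndr and 298, 275 and 220 CPM in WT totals, without overlap (log2 -0.82, SE 0.187, edgeR adjusted p = 0.607).

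The basement membrane list had 11 of 26 lower and 2 higher. Its median was -0.48 in hilar and -0.04 in peripheral organoids. The median of -0.19 in the totals ran from -0.345 to 0.005 with 1 mouse left out. In the totals 5 members were lower at an unadjusted p under 0.05 in edgeR, against 2.93% of all tested genes. Among these Itga2, a collagen-binding integrin chain, averaged 266 ± 99.3 CPM in Ndr and 550 ± 165 CPM in WT mice, and Lama4, a laminin chain, averaged 13.4 ± 5.63 CPM in Ndr and 28.7 ± 6.06 CPM in WT mice. The YAP target list had 8 of 24 lower and 2 higher. Ankrd1, a nuclear and sarcomeric ankyrin protein and a YAP target, averaged 376 ± 87.5 CPM in Ndr and 595 ± 110 CPM in WT mice, and Amotl2, an angiomotin family scaffold, averaged 180 ± 6.01 CPM in Ndr and 271 ± 61.3 CPM in WT mice. In the insulin and IGF list, with 6 of 18 lower and 3 higher, the insulin receptor substrate Irs1 averaged 12.4 ± 2.36 CPM in Ndr and 24.0 ± 3.44 CPM in WT mice (log2 -0.96, SE 0.202).

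The hypoxia and glycolysis list (16 of 30 lower, 1 higher) and the unfolded protein list (15 of 29 lower, 1 higher) had many members of shared direction. In the totals the differences were small, with medians of -0.21 in each. The hypoxia median was -0.62 in hilar and -0.05 in peripheral organoids, while the unfolded protein median was -0.20 and -0.19. Hexokinase 2 (Hk2), at 51.4 ± 18.1 CPM in Ndr and 101 ± 17.4 CPM in WT mice, was the 1 hypoxia member with an unadjusted p under 0.05, and 0 unfolded protein members had one. Leaving out 1 mouse at a time moved the hypoxia median of the totals between -0.539 and 0.185, and the unfolded protein median between -0.295 and -0.138.

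As many components of the Notch pathway were lower as were higher in both regions. Of 26 components, among ligands, receptors, secretase subunits and nuclear partners, 6 were lower in both regions, 6 higher and 14 opposite, with a median of -0.05. The receptor Notch1 had 16.4, 10.9 and 13.02 CPM in Ndr and 25.8, 21.9 and 17.5 CPM in WT totals, and was the 1 component with an unadjusted p under 0.05 (log2 -0.69, SE 0.223, edgeR adjusted p = 0.869). Rbpj averaged 71.9 ± 19.3 CPM in Ndr and 90.5 ± 10.01 CPM in WT mice. Of 15 target genes 2 were lower, 5 higher and 8 opposite. Hes1 averaged 106 ± 12.5 CPM in Ndr and 105 ± 19.4 CPM in WT mice (log2 0.02, SE 0.171). In the totals Hey1 differed by 0.12, Nrarp by -0.40 and Sox9 by -0.26. Hes1, Hey1, Nrarp and Sox9 each had opposite directions in the regions. The targets with an unadjusted p under 0.05 in edgeR were Dtx4, Id1 and Id3. Dtx4, an E3 ligase of the Deltex family, had 24.2, 16.7 and 18.7 CPM in Ndr and 32.0, 33.5 and 31.6 CPM in WT totals. Id1, an inhibitor of helix-loop-helix factors that BMP signals also control, was higher, at 101, 173 and 170 CPM in Ndr and 101, 81.8 and 75.4 CPM in WT totals. Id3, of the same family, averaged 12.9 ± 8.33 CPM in Ndr and 3.28 ± 1.63 CPM in WT mice.

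Most cholangiocyte identity genes had opposite directions in the regions, while genes of large ducts and mucous cells mostly shared theirs, some lower and some higher. Of 31 cholangiocyte identity genes 3 were lower, 6 higher and 22 opposite, with 0 at an unadjusted p under 0.05 in edgeR. Of 16 large duct and mucous genes 5 were lower and 6 higher in both regions, and 9 had an unadjusted p under 0.05, 4 lower and 5 higher, against 5.42% of all tested genes. Lgals4, a gut and duct galectin, had 303, 871 and 299 CPM in Ndr and 55.8, 137 and 128 CPM in WT totals. Lgals2, of the same family, averaged 80.5 ± 71.3 CPM in Ndr and 9.15 ± 5.45 CPM in WT mice. Both galectins differed more in peripheral organoids (log2 2.61 for Lgals4 and 3.75 for Lgals2) than in hilar ones (0.97 and 0.60). Muc20, a membrane mucin, averaged 8.04 ± 2.28 CPM in Ndr and 26.6 ± 14.9 CPM in WT mice. The gut marker sum was 343 to 730 CPM in Ndr and 377 to 617 CPM in WT libraries, highest in the peripheral culture of Ndr mouse 1220, which was also highest in Lgals4. Most of this sum came from Cdh17, with a median of 462 CPM in Ndr and 469 CPM in WT libraries. Cdx2, another gut marker, ranged over 1.57 to 85.5 CPM in Ndr and 7.54 to 16.1 CPM in WT libraries. The part of gut-like expression in these differences was not tested. Of the junction genes, Cldn1, the tight junction protein claudin 1, had 2.11, 1.02 and 0.804 CPM in Ndr and 4.32, 12.2 and 9.09 CPM in WT totals.

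The clade B serpins, intracellular protease inhibitors, had 3 of 8 tested members higher in both regions, 1 lower and 4 opposite. Their median was -0.54 in hilar and 0.89 in peripheral organoids. All 3 members higher in both regions had an unadjusted p under 0.05 in edgeR, where 2.49% of all tested genes were higher at that threshold. Besides Serpinb9 these were Serpinb1a, with 36.7, 82.0 and 73.6 CPM in Ndr and 22.5, 22.9 and 6.94 CPM in WT totals, and Serpinb6b, at 334 ± 107 CPM in Ndr and 205 ± 29.3 CPM in WT mice. In the list of G protein regulators and adhesion receptors, Adgrg6, an adhesion receptor of the same family as Adgrg7, went the other way, with 66.3, 55.6 and 56.6 CPM in Ndr and 107, 110 and 76.8 CPM in WT totals. In the Wnt and stem list Olfm4 and Lgr6 were lower and Lgr4 higher, and 9 of 22 members were lower and 7 higher in both regions.

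Some lists had hardly any member of shared direction. Of 44 proliferation genes 41 were opposite, 3 lower and 0 higher, and of 28 cholesterol synthesis genes 25 were opposite. Mki67, the proliferation marker Ki-67, differed by -2.27 in hilar and 0.05 in peripheral organoids, and its totals averaged 70.1 ± 10.7 CPM in Ndr and 111 ± 48.8 CPM in WT mice. Other lists had more shared members, such as interferon genes (10 of 24 lower, 2 higher, 12 opposite) and cilium genes (2 of 35 lower, 10 higher, 23 opposite). These 2 lists had 1 and 0 members with an unadjusted p under 0.05 in edgeR. The 1 interferon member was H2-Q4, which was higher in Ndr (log2 0.93, SE 0.332). Of the lists of other cell types, hepatocyte genes had 2 of 11 lower and 2 higher, fibroblast and stellate genes 1 of 6 and 2, immune genes 4 of 5 and 1, and gut and pancreas genes 0 of 5 and 1. The mesothelial and neural list had 2 tested members, Wt1 and Msln, and the endothelial list 1, Flt1.

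**Figure D5:**
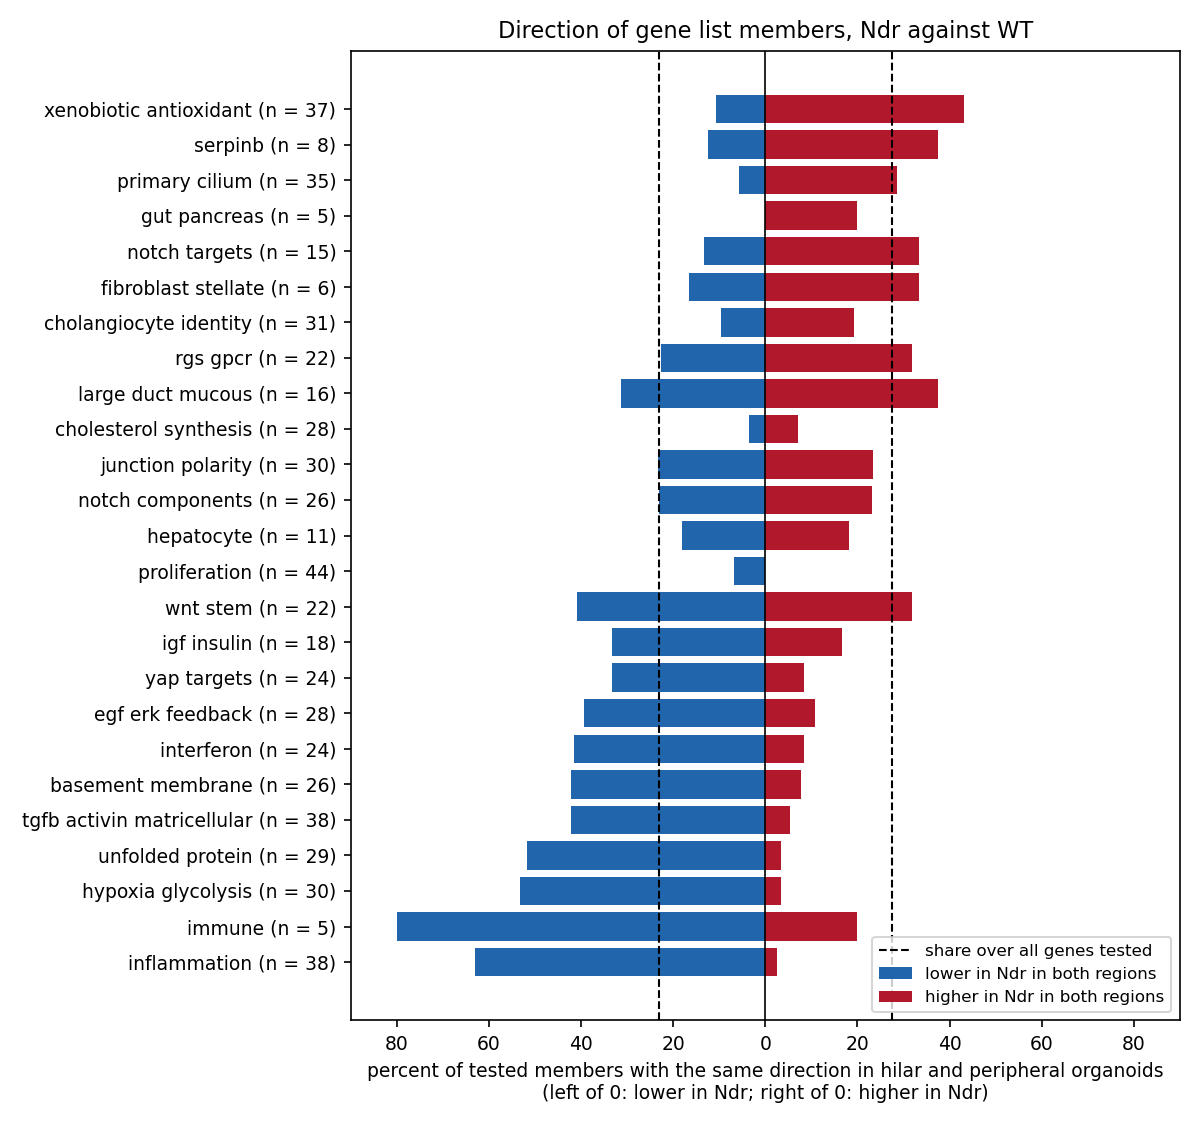
Share of tested members of each gene list (x axis, percent; n tested in brackets) that were lower (blue, left of 0) or higher (red, right of 0) in Ndr in both regions; dashed lines mark the 23.2% and 27.4% over all 14946 genes, and lists with under 5 tested members are left out. Inflammation (63.2% lower) and xenobiotic and antioxidant genes (43.2% higher) stand at either end of the lists of over 10 genes. The lists were chosen with earlier results of these data known.

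Genes of opposite direction in the regions are given for contrast, as the 4 with the smallest interaction p. Chpt1, an enzyme of phosphatidylcholine synthesis, had 66.5, 111 and 53.9 CPM in Ndr and 29.3, 33.8 and 22.2 CPM in WT hilar organoids, but 20.1, 18.2 and 26.8 CPM in Ndr and 56.8, 109 and 36.4 CPM in WT peripheral organoids. The totals of Chpt1 averaged 45.7 ± 8.90 CPM in Ndr and 49.3 ± 23.9 CPM in WT mice. Rbm38, an RNA-binding protein, was lower in hilar (-0.84) and higher in peripheral Ndr organoids (0.57). Smoc1, a matrix protein that binds BMPs, differed by -3.61 in hilar and 1.82 in peripheral organoids, and Rian, a noncoding RNA of an imprinted cluster, by 3.09 in hilar and -2.95 in peripheral organoids. Their totals differed by -1.06 for Smoc1 (SE 0.749) and 1.21 for Rian (SE 0.755), and that of Rbm38 by -0.03 (SE 0.173). None of the 15014 genes passed the edgeR interaction test at an adjusted p of 0.05 (0%), 451 had an unadjusted p under 0.05 (3%), and DESeq2 called 4.

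The pair derived on the same day, Ndr mouse 1224 and WT mouse 1225, was set side by side as a comparison added after the data were seen. All 12 lower and all 12 higher genes had the same sign in this pair as in the totals, and 9599 of the 14946 genes did. The pair is part of the totals, so its sign is not independent of them. The log2 differences of the pair were -3.13 for Rgs16, -1.94 for Inhba, -2.96 for Tnc, 2.85 for Adgrg7 and 4.31 for Ttr, and over the 12 lower genes they ranged from -3.84 for Soga3 to -0.79 for Cxcl2. Jag1 was 0.11 in this pair. With 1 mouse each there is no test.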

How the data were processed

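RNA of 12 organoid cultures was sequenced on an Illumina NextSeq 550 from libraries of a kit without strand information. The submitters' processing notes name featureCounts and the build GRCm39; which aligner, annotation release and rule for shared reads they used was not given in the sources used here. The deposited table holds raw counts for 53700 gene identifiers, 28444 with a count. The authors also deposited a normalized table (signal), made with DESeq2 1.34.0 per the submitters' processing notes; its values are whole multiples of 1 step per library (100% within a tolerance of 0.01), yet 43.1% of these multiples equal the raw count, so it was used in an alternative only.

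Symbols for 52093 identifiers came from GENCODE M21 names, and gene order from the same GRCm38 annotation. Columns were matched to mice by the number in their names. The hilar and peripheral counts of each mouse were summed, and 3 Ndr were tested against 3 WT totals in edgeR 4.0.16 (R 4.3.3; filterByExpr, TMM, robust quasi-likelihood test, 15401 genes, 4 residual degrees of freedom). Regional differences and the interaction came from a fit of 12 libraries (15014 genes, 8 residual degrees of freedom). The Benjamini-Hochberg adjustment ran over all genes tested, with a threshold of 0.05. SEs were computed back from the log2 difference and F, and values are means ± SD of n = 3 mouse totals unless libraries are named. Alternatives used DESeq2 1.42.0 and limma 3.58.1, other scalings and filters, derivation date, and each mouse left out. With 3 mice per genotype the smallest two-sided p of an exact permutation test is 0.1. The fits were tested on simulated data.

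The named genes are Jag1, the 12 lower and 12 higher of shared direction with the smallest p, the 10 of separated libraries with the largest smaller difference, up to 4 members of a list with the smallest p and its 2 most abundant, and 4 of opposite direction with the smallest interaction p, with at least 5 CPM except in lists. Other genes, those of chromosome 2 included, were picked with their values in view. The 27 lists hold 718 symbols, of which 715 matched. Members and lists were chosen with earlier results of these data known.

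Each number names an animal, so it pairs that animal's cultures. The deviations of a mouse's hilar and peripheral cultures from their group means correlated at -0.314, -0.340 and 0.140 in Ndr mice 1219, 1220 and 1224 and at 0.333, -0.0624 and 0.450 in WT mice 1221, 1223 and 1225. The most alike libraries had a correlation of 0.993, and none was counted as a repeat of another.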

Additional observations from a re-analysis of the deposited data

Results flagged for a closer look

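Genes were flagged where every culture differed by genotype in opposite ways in the 2 regions. Chpt1 was higher in all hilar and lower in all peripheral Ndr organoids, with a difference between the regional differences of 3.07 on the log2 scale (edgeR interaction, unadjusted p = 0.000192, adjusted p = 0.994). Rbm38 was lower in all hilar and higher in all peripheral Ndr organoids, with -1.41 (edgeR interaction, unadjusted p = 0.00049, adjusted p = 0.994). Neither passed the adjusted threshold. Both were named by the rule that takes the smallest interaction p.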

How the results depend on the processing

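For Ndr against WT mouse totals, edgeR called 0 genes. The count was 0 too with DESeq2 size factors, upper quartile scaling, a stricter filter and limma-voom, 126 with DESeq2, 5 without a filter (Rgs16, Inhba, Soga3, Gm18234 and Akap12), 2 with equal weight of both libraries (Inhba and Rgs16), 2 with the replicate block (Gm18234 and Bpifb4), 7 with derivation date (Reg3g, Reg3b, Olfm4, Serpinb1a, Rcn1, Rpl29 and Il33) and 7393 with the authors' normalized table. Leaving out each mouse gave 0 to 4, with 4 without mouse 1219. At an unadjusted p under 0.05 the 834 genes became 1611 with derivation date, 8536 with the normalized table, and 483 (without mouse 1220) to 1450 (without mouse 1224) with a mouse left out. The contrast of the fit with derivation date rested on Ndr mouse 1224 and WT mouse 1225 alone. Its spread between mice came only from WT mice 1221 and 1223, which share a derivation day. Both gene counts of that fit therefore do not test the genotype, since no spread among Ndr mice entered them. DESeq2 called 45 genes in hilar organoids, 9 in peripheral organoids and 4 for the interaction, against 0 each in edgeR. The count of genes higher in both regions, 4097 with all mice, was 2650 (without mouse 1219) to 4669 (without mouse 1223) in the fits with a mouse left out. The cause of these shifts was not tested.

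With derivation date in the model, where only mice 1224 and 1225 set the contrast, list medians moved to 0.189 (Notch components), 0.187 (cholangiocyte identity), -0.133 (large duct), 3.179 (hepatocyte), 0.489 (gut and pancreas), 2.635 (fibroblast), 0.551 (immune), 0.252 (xenobiotic), 0.063 (inflammation), 1.101 (interferon), 0.254 (IGF), -0.11 (junction), -1.399 (proliferation), -0.517 (cholesterol) and -0.749 (clade B serpins). Leaving out each mouse moved the medians between -0.087 and 0.096 for Notch components, -0.187 and 0.149 for Notch targets, 0.096 and 0.622 for large duct, 0.185 and 1.595 for fibroblast, -0.049 and 0.441 for gut and pancreas, -0.352 and 0.002 for G protein regulators, -0.234 and 0.013 for Wnt, and 0.275 and 1.105 for clade B serpins. Inflammation stayed between -0.62 and -0.326 and xenobiotic genes between 0.332 and 0.529. Jag1 turned to 0.11 with derivation date and in the same-day pair, and to 0.21 in the normalized table. The other 29 genes named first by size or p kept their direction in all settings run. They were chosen from these same counts, so a kept direction is not an independent check. With 3 mice per genotype, a difference that misses the threshold is not shown to be absent.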
